A study of Zea mays with 12 samples.

Results

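In maize endosperm collected 16 days after pollination, 33 of 39448 gene models were higher in every mutant genotype than in wild type. The mutant genotypes were opaque2 (o2), an RNA interference line against the prolamin-box binding factor (PbfRNAi) and the line carrying both lesions (PbfRNAi;o2, called the double mutant below). The genes were chosen on the deposited FPKM values, which scale the fragments mapped to a gene model by its length and by the library's total. Each gene kept had, in each of the 3 mutant genotypes, a mean FPKM plus 0.5 of at least 2.5 times the same quantity in wild type (WT). All 9 mutant libraries also lay above all 3 WT libraries, and the highest of the 4 genotype means plus 0.5 lay between 5 and 300. Because WT levels chose the genes, every value set against WT is a description and carries no test. Differences between mutant genotypes contain no WT mean and were tested. The WT libraries did enter the shared estimate of spread behind those tests. The rule also used the mutant means and libraries, so these tests run on genes chosen partly by the same values and are not free of that choice.

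Opaque2 is a bZIP transcription factor and PBF a Dof transcription factor, and both are known as activators of the genes for zeins, the storage proteins that fill the endosperm protein bodies. Kernels that lack Opaque2 are soft and opaque, with less zein and a larger share of other proteins. RNA interference lowers a transcript through small RNAs matched to it and usually leaves part of it in place.

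The 12 libraries came from 3 replicates each of o2, PbfRNAi, PbfRNAi;o2 and WT, field-grown, which the series' design text calls biological. The labels do not say which o2 allele was used, which promoter drives the interference construct, what background the lines share or how many ears went into a library. The p-values therefore measure the spread between these libraries as labelled. The o2 transcript (GRMZM2G015534) stood at FPKM 0.165 to 0.677 in o2, 97.3 to 133 in PbfRNAi and 0.27 to 0.804 in PbfRNAi;o2, against 189 to 229.7 in WT. The pbf1 transcript (GRMZM2G146283) stood at 242 to 331 in o2, 39.1 to 56.7 in PbfRNAi and 54.9 to 64.8 in PbfRNAi;o2, against 97.6 to 110.3 in WT. Starchy endosperm markers were abundant, with 6 models summing to FPKM 8081 to 13946 in o2, 6080 to 8212 in PbfRNAi and 8055 to 10922 in PbfRNAi;o2, against 5072 to 6711 in WT. The 2 green tissue models summed to at most FPKM 0.394 in any library, and the part of these shifts in the results was not tested. FPKM keeps no read depth, so the depth of the libraries is unknown and no counting interval is given.

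The rule was set beside the whole table. The tested genes were the 17058 that reached FPKM 1 in 3 or more libraries. Of these, 3168 (18.6%) had all 9 mutant libraries above all WT libraries. A ratio of at least 2.5 with libraries above WT was met by 3.19% of these genes in o2, 4.02% in PbfRNAi and 10.1% in PbfRNAi;o2. All conditions but the limits on level were met by 43 genes, or 0.252%. All 33 members passed the same low filter, which their choice by level made nearly certain. The turned rule, with each mutant mean at most 1/2.5 of WT and all mutant libraries below WT, kept 8 genes.

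Each FPKM value is a share of its library, and on this scale the typical gene was higher in the mutants. Median-of-ratios size factors placed the typical gene at 1.45 times WT in o2, 1.16 times in PbfRNAi and 1.52 times in PbfRNAi;o2. With FPKM divided by these factors the rule kept 12 genes, and 11 of them were among the 33. Those 11 were GRMZM2G026956, GRMZM2G097141, GRMZM2G089493, GRMZM2G006676, GRMZM2G170552, GRMZM2G423898, AC233863.1_FG001, glb1, GRMZM2G042412, GRMZM2G039792 and AGA2. The other 22 missed the limit or the separation on that scale. The number also moved with 1 library, since 64 genes met the rule without WT replicate 1, 31 of them among the 33.

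Over the 33 genes the ratio to WT, with 0.5 added to both means, had a median of 3.39 in o2, 4.62 in PbfRNAi and 6.66 in PbfRNAi;o2. The median over all tested genes was 1.38, 1.14 and 1.45 in the same genotypes. The smallest of the 3 ratios fell in PbfRNAi for 16 members, in o2 for 15 and in the double mutant for 2. It was under 3 for 17 members, 3 to 5 for 11 and 5 or more for 5. The double mutant had the highest of the 3 mutant means in 19 members (57.6%), PbfRNAi in 8 (24.2%) and o2 in 6 (18.2%), where the shares over all tested genes were 47.9%, 14.5% and 37.6%. Summed over the 33 genes, FPKM was 587, 793 and 781 in o2, 585, 674 and 849 in PbfRNAi and 1519, 1163 and 1254 in PbfRNAi;o2, against 117, 131 and 132 in WT. That sum was 0.116% to 0.308% of the FPKM total of a mutant library, and 0.0248% to 0.0306% of that of a WT library.

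**Figure D1:**
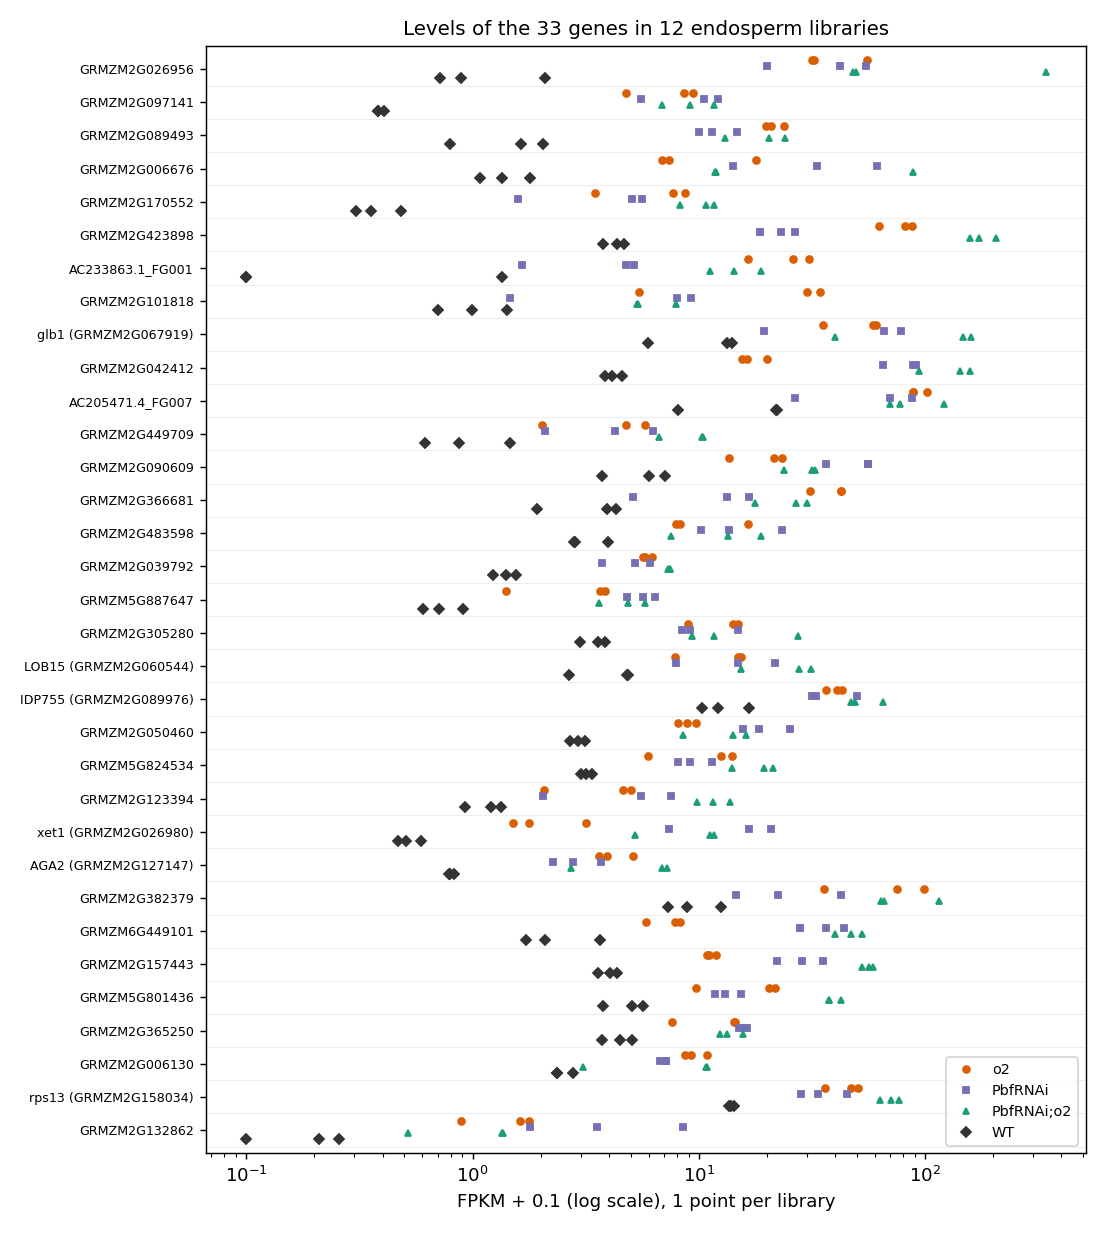
Levels of the 33 genes, ordered by the smallest of their 3 ratios to WT, as FPKM plus 0.1 on a log axis with 1 point per library and a row per gene (o2, PbfRNAi, PbfRNAi;o2 and WT from top to bottom within a row). In every row the 9 mutant points lie to the right of the 3 WT points, as the rule requires, and the distance is smallest in GRMZM2G101818.

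Only 6 of the 33 had a gene name in the reference table, and 24 had an entry in it at all, each as a protein-coding gene. The first is glb1 (GRMZM2G067919), which encodes globulin-1, a storage protein best known from the embryo. Library by library, FPKM was 35.3, 58.7 and 60.7 in o2, 19.3, 65.95 and 77.7 in PbfRNAi and 39.8, 147 and 159.8 in PbfRNAi;o2, against 5.89, 13.95 and 13.2 in WT. Its means were 51.6 ± 14.1 in o2, 54.3 ± 30.9 in PbfRNAi and 116 ± 66.002 in PbfRNAi;o2, against 11.03 ± 4.47 in WT (SD, n = 3). Within every genotype replicate 1 was the lowest library, and double mutant replicate 1 lay inside the range of the single genotypes. The difference of the double mutant from o2 did not pass (log2 fold change 0.95 ± 0.61, adjusted p = 0.31, limma), and neither did that from PbfRNAi (1.06 ± 0.61, adjusted p = 0.18). With the replicate number as a block both passed, at limma adjusted p = 0.0112 and 0.00355. Log2 fold changes here and below are on the log2(FPKM + 1) scale, with their SE.

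Markers of other cell types were read beside glb1, since fewer cells of a type and less RNA per cell cannot be told apart in bulk tissue. The other 5 models of the embryo list summed to FPKM 323 to 349 in o2, 311 to 556 in PbfRNAi and 331 to 365 in PbfRNAi;o2, against 332 to 373 in WT. Most of that sum was the oleosin gene ole1, while the embryo regulators lec1 and kn1 were listed at 0 in all 12 libraries and glb2 was at most 0.39. None of the 5 had all mutant libraries above WT. The 4 aleurone models summed to 138 to 160.4 in o2, 105 to 154 in PbfRNAi and 147 to 225 in PbfRNAi;o2, against 93.6 to 106 in WT. These models did not move alike. Mean FPKM of nkd1 was 117 in o2, 63 in PbfRNAi and 161 in PbfRNAi;o2, against 52.7 in WT. That of nkd2 was 14.3, 41.1 and 16.4, against 32.2 in WT. For cr4 it was 4.23, 4.20 and 4.20 against 3.84, and for dek1 14.95, 15.5 and 17.2 against 10.6. The 7 basal transfer layer models summed to 292 to 545 in o2, 54.8 to 164 in PbfRNAi and 95.5 to 283 in PbfRNAi;o2, against 191 to 269.7 in WT, so o2 and PbfRNAi did not overlap. In the double mutant these models also differed in direction. There betl1 averaged 37.7 against 101 in WT, and betl2 averaged 59.3 against 25.1 in WT. The 4 embryo surrounding region models summed to 4.77 to 11.1 in o2, 1.17 to 5.94 in PbfRNAi and 2.33 to 4.58 in PbfRNAi;o2, against 3.94 to 6.26 in WT. The part of these cell types in the glb1 level or in the other members was not tested. A second model under the name glb1, GRMZM2G067402, is not a member and averaged FPKM 1.82 in o2, 4.88 in PbfRNAi and 6.89 in PbfRNAi;o2, against 2.79 in WT. How reads shared by such copies were divided is not stated, so levels of single glb1 models are uncertain to that extent.

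Both named enzymes act on carbohydrates. The gene xet1 (GRMZM2G026980) is named for xyloglucan endotransglycosylase, a class of enzymes that cut and rejoin cell wall xyloglucan. The levels were FPKM 3.07, 1.41 and 1.68 in o2, 7.28, 16.5 and 20.6 in PbfRNAi and 5.11, 11.1 and 11.6 in PbfRNAi;o2, against 0.367, 0.494 and 0.408 in WT. All o2 libraries lay below all libraries of the genotypes with Pbf RNAi, and PbfRNAi overlapped with the double mutant. The transcript was lower in o2 than in PbfRNAi (log2 fold change −2.30 ± 0.36, adjusted p = 0.000467, limma) and higher in the double mutant than in o2 (1.72 ± 0.36, adjusted p = 0.00509). Both calls held under all 21 alternative settings. AGA2 (GRMZM2G127147) is named for an alkaline alpha-galactosidase, a family that removes galactose from sugars of the raffinose type. FPKM in its libraries was 5.002, 3.83 and 3.53 in o2, 3.58, 2.16 and 2.69 in PbfRNAi and 2.62, 7.14 and 6.80 in PbfRNAi;o2, against 0.696, 0.684 and 0.729 in WT. The WT libraries were close together, and the mutant genotypes overlapped with one another. Its call of higher in the double mutant than in PbfRNAi was weak (limma, 0.70 ± 0.27, adjusted p = 0.048), and it was lost with the replicate block (limma adjusted p = 0.0629) and under 15 of the other 20 settings, among them the removal of any 1 WT or o2 library.

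A further pair of names concerns translation and transcription. The gene rps13 (GRMZM2G158034) is named for ribosomal protein S13 of the small ribosomal subunit. It stood at FPKM 36.01, 46.9 and 50.4 in o2, 45.2, 28.2 and 33.5 in PbfRNAi and 76.9, 62.8 and 70.7 in PbfRNAi;o2, against 14.2, 13.7 and 13.4 in WT. The double mutant lay above both single genotypes with no overlap, and the single genotypes overlapped. The transcript was higher in the double mutant than in o2 (limma log2 fold change 0.66 ± 0.17, adjusted p = 0.0148; adjusted p = 0.053 without o2 replicate 1) and than in PbfRNAi (0.98 ± 0.17, adjusted p = 0.000766). LOB15 (GRMZM2G060544) belongs to the LOB domain family of plant transcription factors. Its libraries stood at FPKM 7.76, 14.8 and 15.2 in o2, 7.80, 14.7 and 21.5 in PbfRNAi and 15.3, 27.6 and 31.1 in PbfRNAi;o2, against 2.58, 4.71 and 4.79 in WT. Replicate 1 was the lowest library in each genotype, and double mutant replicate 1 lay among the single libraries. The differences of the double mutant from o2 and from PbfRNAi did not pass (limma adjusted p = 0.114 and 0.129), but did with the replicate block (0.000244 and 0.000545).

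The sixth name, IDP755 (GRMZM2G089976), is a locus name that gives no function. Its level was FPKM 36.2, 40.7 and 43.01 in o2, 49.9, 32.995 and 31.4 in PbfRNAi and 65.1, 46.9 and 48.6 in PbfRNAi;o2, against 16.6, 12.1 and 10.2 in WT. Double mutant replicate 1 was the highest library, and o2 overlapped with PbfRNAi. The gene was called in none of their 3 contrasts, although the double mutant against PbfRNAi passed with the replicate block (limma adjusted p = 0.0215, against 0.0661 without it). The remaining 27 members are given by their identifiers, since the tables used here hold no description of their products.

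**Figure D2:**
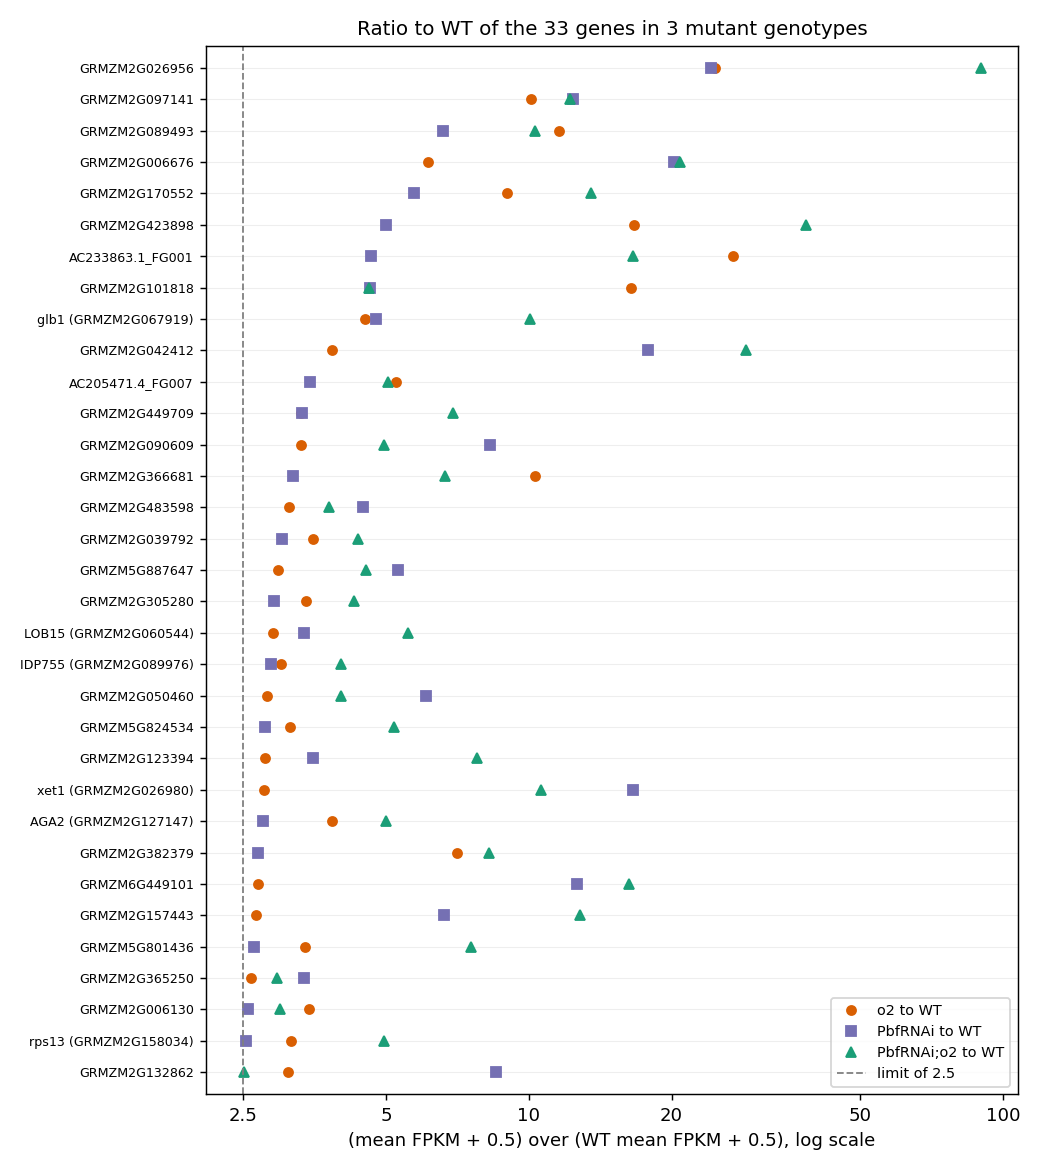
Ratio of each mutant mean to the WT mean, with 0.5 added to each FPKM mean, on a log axis for the 33 genes (circle o2, square PbfRNAi, triangle PbfRNAi;o2; dashed line, the limit of 2.5). The triangle of GRMZM2G026956, at 89.7, is the farthest point to the right, and the triangle is the rightmost point in 19 rows.

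Of the members 9 had a WT mean under FPKM 1, and none of the 33 had a mutant library listed at 0. One of them was GRMZM2G097141, at FPKM 4.67, 9.35 and 8.47 in o2, 5.46, 11.99 and 10.4 in PbfRNAi and 6.78, 11.6 and 9.04 in PbfRNAi;o2, against 0.283, 0.308 and 0.28 in WT. Its lowest mutant library was 15.2 times its highest WT library, the widest such gap of the 33, and the mutant genotypes overlapped. The means were 7.49 ± 2.49 in o2, 9.30 ± 3.41 in PbfRNAi and 9.14 ± 2.42 in PbfRNAi;o2, against 0.29 ± 0.0151 in WT (SD, n = 3). No contrast between mutant genotypes passed for it, with limma adjusted p of 0.539 for the double mutant against o2, 0.979 for the double mutant against PbfRNAi and 0.464 for o2 against PbfRNAi.

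GRMZM2G170552 was likewise low in WT. Library by library, FPKM was 3.38, 7.62 and 8.58 in o2, 1.48, 4.95 and 5.52 in PbfRNAi and 8.13, 10.6 and 11.5 in PbfRNAi;o2, against 0.206, 0.257 and 0.384 in WT. PbfRNAi was the lowest mutant genotype and the double mutant was above it with no overlap (limma log2 fold change 1.26 ± 0.36, adjusted p = 0.0145; 0.0751 with median-of-ratios scaling). With the replicate block it was also higher in o2 than in PbfRNAi (limma adjusted p = 0.0301, against 0.169 without it). AC233863.1_FG001 was listed at 0 in 2 WT libraries, a value that can be a failed estimate, and no mean or fold is given for it in WT. The levels were FPKM 16.4, 30.6 and 25.8 in o2, 1.55, 5.07 and 4.65 in PbfRNAi and 11.1, 14.2 and 18.8 in PbfRNAi;o2, against 1.26, 0 and 0 in WT. The WT library with a value reached almost the lowest PbfRNAi library, while o2 and the double mutant were far above both. GRMZM2G132862, also with a WT library listed at 0, stood at FPKM 0.786, 1.67 and 1.52 in o2, 1.69, 3.44 and 8.40 in PbfRNAi and 1.25, 0.416 and 1.26 in PbfRNAi;o2, against 0.156, 0.11 and 0 in WT. It was a member by a narrow margin, with a smallest ratio of 2.51 in the double mutant.

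The gap was narrow in GRMZM2G101818. FPKM in its libraries was 5.32, 30.03 and 34.1 in o2, 1.36, 9.17 and 7.91 in PbfRNAi and 7.78, 5.24 and 5.29 in PbfRNAi;o2, against 0.604, 1.31 and 0.895 in WT. Replicates 2 and 3 of o2 were high and o2 replicate 1 was at the level of the other mutants. The lowest mutant library, PbfRNAi replicate 1, was 1.03 times the highest WT library, the smallest gap of the 33. With median-of-ratios scaling this gene was no member although its ratios passed, because its libraries were no longer all above WT. With the replicate block it was higher in o2 than in PbfRNAi (limma adjusted p = 0.04, against 0.0594 without it). GRMZM2G449709 and GRMZM5G887647 also averaged under FPKM 1 in WT. The first stood at FPKM 1.92, 5.66 and 4.65 in o2, 1.995, 4.16 and 6.16 in PbfRNAi and 6.60, 10.4 and 10.3 in PbfRNAi;o2, against 0.771, 0.516 and 1.37 in WT. The second stood at FPKM 1.31, 3.74 and 3.55 in o2, 6.28, 5.59 and 4.71 in PbfRNAi and 5.67, 4.78 and 3.53 in PbfRNAi;o2, against 0.61, 0.506 and 0.805 in WT. In each, o2 replicate 1 was the lowest mutant library.

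GRMZM2G026956 had the largest ratio of the 33 in PbfRNAi and in the double mutant. In o2 the largest was that of AC233863.1_FG001, a rank that rests on WT libraries listed at 0. GRMZM2G026956 stood at FPKM 55.2, 32.3 and 31.6 in o2, 19.8, 42.1 and 54.9 in PbfRNAi and 340.2, 47.9 and 49.2 in PbfRNAi;o2, against 1.99, 0.617 and 0.788 in WT. Its highest library, double mutant replicate 1, was far above the other libraries of that genotype, which themselves lay within the range of the single genotypes. The folds of means were 35.1-fold in o2, 34.5-fold in PbfRNAi and 129-fold in PbfRNAi;o2, the last resting on that library. None of the contrasts between mutants passed (limma adjusted p = 0.219, 0.125 and 0.922 for the double mutant against o2, the double mutant against PbfRNAi and o2 against PbfRNAi). GRMZM2G006676 had the same high library. Its libraries stood at FPKM 6.75, 17.7 and 7.30 in o2, 14.1, 33.02 and 60.97 in PbfRNAi and 87.95, 11.7 and 11.7 in PbfRNAi;o2, against 1.24, 1.70 and 0.976 in WT. Without double mutant replicate 1, 32 of the 33 genes were still chosen, with 1 further gene.

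The tested differences between mutant genotypes were counted over the members, beside the share of all tested genes called. In the double mutant against o2, 8 members were higher and none lower by limma (adjusted p under 0.05), where 14.4% of all tested genes were higher and 7.84% lower. At an unadjusted p under 0.05, 13 were higher and 0 lower, but the share of all tested genes at that limit was not computed. With the replicate block 13 members were higher and 1 lower, where 19.3% of tested genes were higher and 11.1% lower. In the double mutant against PbfRNAi, 14 were higher and 3 lower, where 38.9% of tested genes were higher and 6% lower. In o2 against PbfRNAi, 5 were higher and 8 lower, where 34.8% of tested genes were higher and 9.97% lower. With median-of-ratios scaling 3 members were higher and 9 lower in o2 than in PbfRNAi, where 14.7% of tested genes were higher and 17% lower. With the same scaling 6 were higher and 4 lower in the double mutant than in PbfRNAi, where 13.7% and 14.3% of tested genes were. Against o2 the scaled counts were 8 and 0, beside 12.2% and 10.5%. Libraries that did not overlap gave 13 members higher and 1 lower in the double mutant than in o2, against 25.9% and 13.9% of tested genes. For the double mutant against PbfRNAi these were 13 and 2, against 46.6% and 7.9%, and for o2 against PbfRNAi 6 and 9, against 41.7% and 12.8%. In all, 12 members were called in none of the contrasts and 21 in at least 1, where 36.9% of tested genes were called in none and 63.1% in at least 1.

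Single libraries moved these counts. Members higher in the double mutant than in o2 numbered 13 without double mutant replicate 1, where 13.1% of tested genes were higher. Those higher in the double mutant than in PbfRNAi numbered 9 without double mutant replicate 2 (33.5% of tested genes) or replicate 3 (33.1%). Those lower in the same contrast numbered 1 without PbfRNAi replicate 3 (4.12%) or double mutant replicate 1 (6.65%). Members higher in o2 than in PbfRNAi numbered 8 without o2 replicate 1 (37.8%), and 1 was then lower in the double mutant than in o2 (9.51%).

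**Figure D3:**
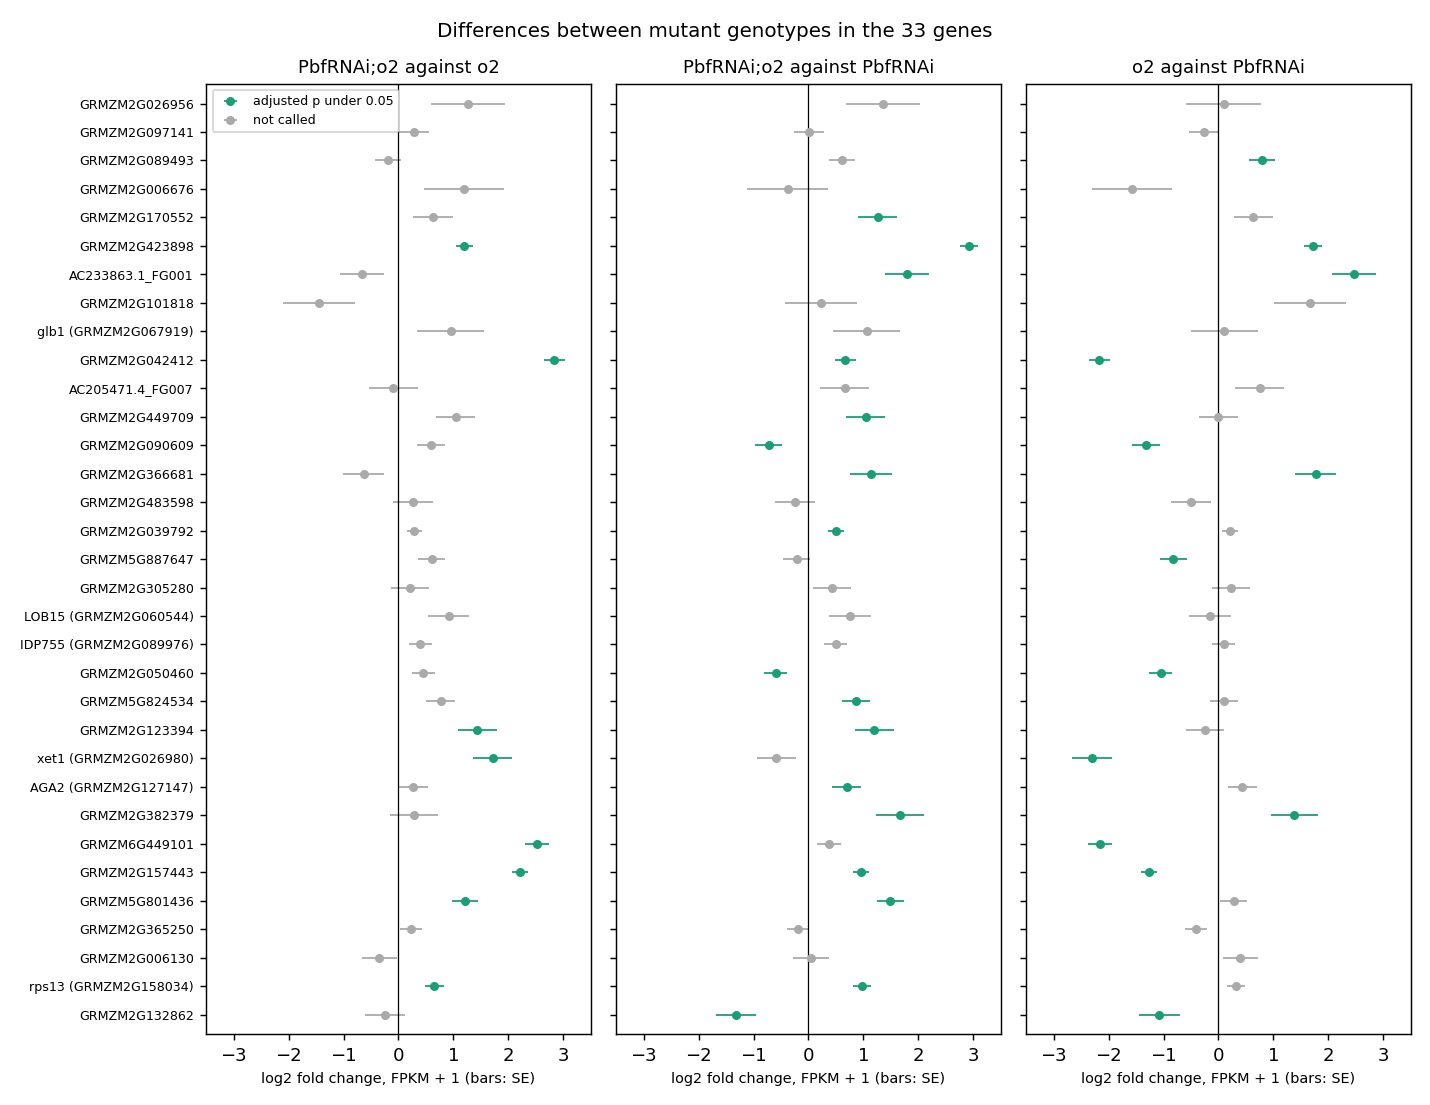
Log2 fold changes on the log2(FPKM + 1) scale between mutant genotypes for the 33 genes, with SE bars, in PbfRNAi;o2 against o2 (left), PbfRNAi;o2 against PbfRNAi (middle) and o2 against PbfRNAi (right). Green points have a limma adjusted p under 0.05: 8, 17 and 13 genes from left to right, the left ones all above 0.

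By limma, 6 members were higher in the double mutant than in both single genotypes, as were 9.21% of tested genes. One was GRMZM2G423898. Library by library, FPKM was 62.6, 81.5 and 87.3 in o2, 26.6, 18.6 and 23.1 in PbfRNAi and 205, 157 and 172 in PbfRNAi;o2, against 4.57, 3.66 and 4.24 in WT. No 2 genotypes overlapped, and the order was the double mutant, o2, PbfRNAi and WT. Its means were 77.1 ± 12.9 in o2, 22.8 ± 4.03 in PbfRNAi and 178 ± 24.4 in PbfRNAi;o2, against 4.16 ± 0.46 in WT (SD, n = 3). The limma log2 fold change was 1.20 ± 0.16, adjusted p = 0.000195 for the double mutant against o2, 2.92 ± 0.16, adjusted p = 1.14e-07 for the double mutant against PbfRNAi and 1.72 ± 0.16, adjusted p = 8.15e-06 for o2 against PbfRNAi. All 3 calls held under all 21 alternative settings.

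Both GRMZM2G157443 and GRMZM2G042412 were highest in the double mutant, then PbfRNAi, o2 and WT, with no overlap between any 2 genotypes. GRMZM2G157443 stood at FPKM 10.99, 11.9 and 10.7 in o2, 35.3, 22.1 and 28.6 in PbfRNAi and 58.6, 52.4 and 56.1 in PbfRNAi;o2, against 4.27, 3.48 and 3.94 in WT. It was higher in the double mutant than in o2 (limma log2 fold change 2.22 ± 0.15, adjusted p = 4.62e-07) and than in PbfRNAi (0.96 ± 0.15, adjusted p = 0.000359), and lower in o2 than in PbfRNAi (−1.26 ± 0.15, adjusted p = 4.30e-05). GRMZM2G042412 stood at FPKM 19.8, 16.2 and 15.4 in o2, 87.96, 65.1 and 90.8 in PbfRNAi and 93.8, 142 and 158 in PbfRNAi;o2, against 3.76, 4.04 and 4.46 in WT. It too was higher in the double mutant than in o2 (2.84 ± 0.19, adjusted p = 5.16e-07, limma) and lower in o2 than in PbfRNAi (−2.17 ± 0.19, adjusted p = 4.58e-06). Its difference between the double mutant and PbfRNAi (0.67 ± 0.19, adjusted p = 0.0139, limma) was lost when scaled (adjusted p = 0.375), and without PbfRNAi replicate 2 (0.0653), double mutant replicate 2 (0.0503) or double mutant replicate 3 (0.0602).

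Besides rps13, the last of the 6 were GRMZM5G801436 and GRMZM2G123394, in which the single genotypes overlapped and the double mutant lay above both. GRMZM5G801436 stood at FPKM 9.66, 21.6 and 20.4 in o2, 11.7, 12.9 and 15.3 in PbfRNAi and 42.2, 37.6 and 37.4 in PbfRNAi;o2, against 3.68, 4.98 and 5.54 in WT. Its limma log2 fold change was 1.21 ± 0.24, adjusted p = 0.00344 for the double mutant against o2 and 1.49 ± 0.24, adjusted p = 0.000551 against PbfRNAi. GRMZM2G123394 stood at FPKM 1.96, 4.92 and 4.53 in o2, 1.94, 5.47 and 7.45 in PbfRNAi and 13.6, 9.72 and 11.4 in PbfRNAi;o2, against 1.23, 0.822 and 1.10 in WT. Its call against PbfRNAi (1.20 ± 0.35, adjusted p = 0.0174, limma) was lost when scaled (adjusted p = 0.0846) and without double mutant replicate 1 (0.0584). Of the 33, 8 had all double mutant libraries above all libraries of both single genotypes, against 17% of all tested genes.

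**Figure D4:**
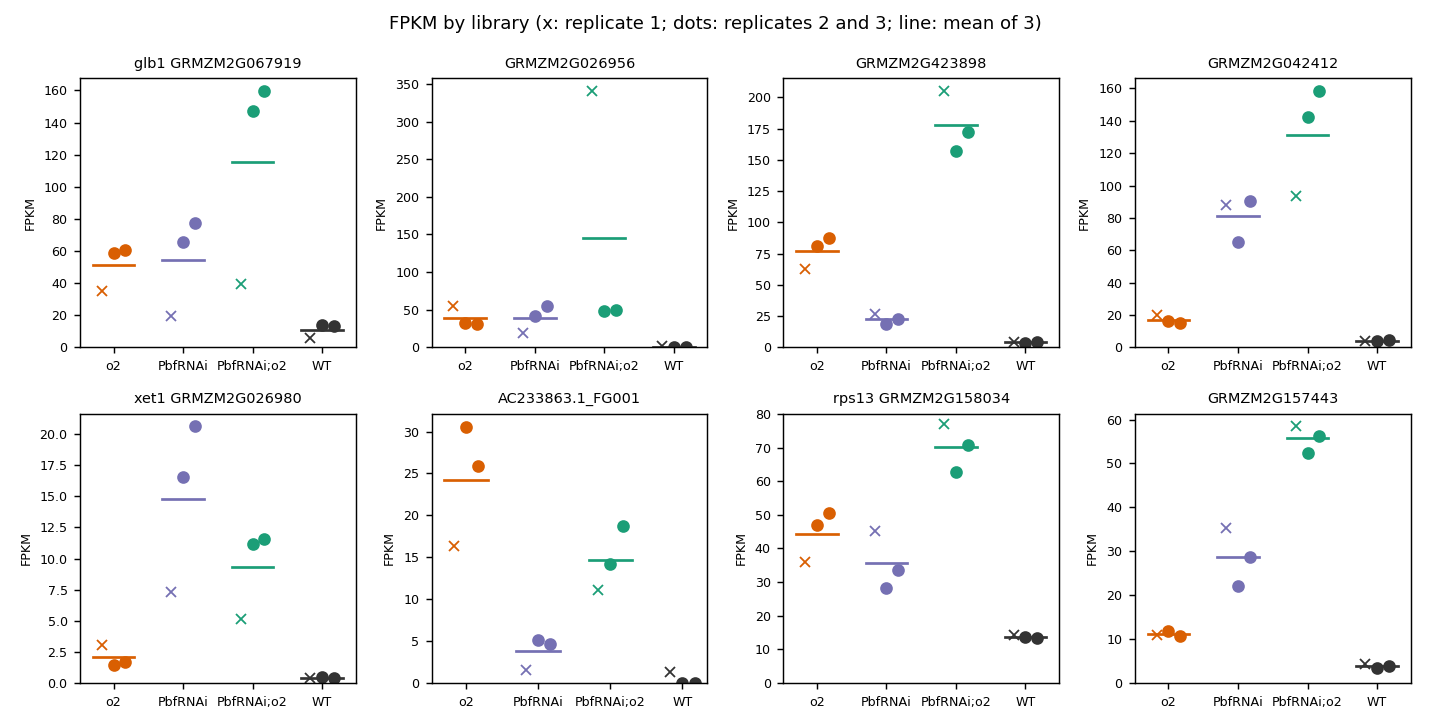
FPKM in each library of 8 of the 33 genes by genotype (crosses, replicate 1; dots, replicates 2 and 3; lines, genotype means of 3, not drawn where a library is listed at 0), with axes from 0. The panels show the high PbfRNAi;o2 replicate 1 of GRMZM2G026956, the low replicate 1 libraries of glb1, and o2 libraries that lie nearer to WT than those of the other mutant genotypes in GRMZM2G042412, xet1 and GRMZM2G157443.

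By limma, 4 members were higher in both genotypes with Pbf RNAi than in o2, as were 5.14% of tested genes. They were xet1, GRMZM2G042412, GRMZM2G157443 and GRMZM6G449101. GRMZM6G449101 stood at FPKM 8.17, 5.74 and 7.78 in o2, 43.5, 27.8 and 36.5 in PbfRNAi and 52.7, 39.8 and 46.8 in PbfRNAi;o2, against 3.55, 1.62 and 1.98 in WT. The o2 libraries lay nearer to WT than to the other mutants, and PbfRNAi overlapped with the double mutant. It was lower in o2 than in PbfRNAi (limma log2 fold change −2.16 ± 0.22, adjusted p = 1.48e-05) and higher in the double mutant than in o2 (2.53 ± 0.22, adjusted p = 4.91e-06), both under all 21 settings. The double mutant against PbfRNAi missed the threshold (limma, 0.37 ± 0.22, adjusted p = 0.181) but passed with the replicate block (adjusted p = 0.0165).

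The reverse order, higher in both genotypes with o2 than in PbfRNAi, was called by limma for 4 members and for 23.3% of tested genes. The members were GRMZM2G423898, AC233863.1_FG001, GRMZM2G366681 and GRMZM2G382379. For AC233863.1_FG001 the log2 fold change was 2.46 ± 0.40, adjusted p = 0.000654 for o2 against PbfRNAi and 1.79 ± 0.40, adjusted p = 0.00434 for the double mutant against PbfRNAi (limma), the second lost with a pseudocount of 0.1 (adjusted p = 0.0747). GRMZM2G366681 stood at FPKM 30.7, 42.5 and 42.3 in o2, 5.01, 13.2 and 16.5 in PbfRNAi and 17.5, 26.8 and 29.9 in PbfRNAi;o2, against 1.82, 3.82 and 4.22 in WT. Its o2 libraries were the highest, above the double mutant and PbfRNAi with no overlap. It was higher in o2 than in PbfRNAi (limma, 1.77 ± 0.38, adjusted p = 0.00338). The double mutant against o2 did not pass (−0.64 ± 0.38, adjusted p = 0.266, limma) except with the replicate block (adjusted p = 0.0146). The call of the double mutant over PbfRNAi (1.14 ± 0.38, adjusted p = 0.0299, limma) was lost when scaled (0.168) and without PbfRNAi replicate 1 (0.077), double mutant replicate 2 (0.0802) or double mutant replicate 3 (0.0945).

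GRMZM2G382379 stood at FPKM 35.6, 99.01 and 75.1 in o2, 14.4, 22.3 and 42.3 in PbfRNAi and 115, 65.98 and 63.6 in PbfRNAi;o2, against 12.4, 8.80 and 7.20 in WT. The o2 and the double mutant libraries were mixed, and PbfRNAi was mostly below them. It was higher in the double mutant than in PbfRNAi (limma, 1.67 ± 0.43, adjusted p = 0.0101, held under all 21 settings). Its difference between o2 and PbfRNAi (1.39 ± 0.43, adjusted p = 0.0241, limma) was lost when scaled (adjusted p = 0.0555) and without o2 replicate 2 (0.097), o2 replicate 3 (0.0781), PbfRNAi replicate 1 (0.0862) or PbfRNAi replicate 2 (0.0656). GRMZM2G089493 was 1 of 2 members called in o2 against PbfRNAi alone, as were 8.44% of tested genes. The levels were FPKM 23.6, 19.7 and 20.8 in o2, 14.6, 9.95 and 11.3 in PbfRNAi and 12.9, 20.3 and 23.9 in PbfRNAi;o2, against 0.694, 1.53 and 1.95 in WT. All o2 libraries were above all PbfRNAi libraries (limma, 0.80 ± 0.24, adjusted p = 0.0168), a call lost when scaled (0.199) and without o2 replicate 1 (0.0504) or PbfRNAi replicate 2 (0.0681).

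In 3 members PbfRNAi was higher than both genotypes with o2 by limma, as in 3.72% of tested genes. GRMZM2G090609 stood at FPKM 13.4, 23.2 and 21.4 in o2, 36.5, 55.8 and 55.8 in PbfRNAi and 23.6, 32.4 and 31.6 in PbfRNAi;o2, against 3.61, 5.95 and 6.97 in WT. PbfRNAi was above the double mutant, and the double mutant above o2, with no overlap. The limma log2 fold change was −1.32 ± 0.25, adjusted p = 0.00155 for o2 against PbfRNAi, under all 21 settings. For the double mutant against PbfRNAi it was −0.73 ± 0.25, adjusted p = 0.0347 (limma), a call lost without PbfRNAi replicate 2 (0.116), PbfRNAi replicate 3 (0.107), double mutant replicate 1 (0.117) or double mutant replicate 3 (0.0541). The double mutant against o2 passed only with the replicate block (limma adjusted p = 0.00112, against 0.118).

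GRMZM2G050460 was another of these. FPKM in its libraries was 8.01, 8.75 and 9.64 in o2, 25.1, 15.5 and 18.3 in PbfRNAi and 8.37, 15.99 and 14.1 in PbfRNAi;o2, against 2.83, 3.03 and 2.59 in WT. The o2 libraries were tight and below all PbfRNAi libraries (limma, −1.05 ± 0.21, adjusted p = 0.00207). In the double mutant only replicate 2 reached the PbfRNAi range, and the call of lower there (−0.60 ± 0.21, adjusted p = 0.0374, limma) was lost without PbfRNAi replicate 1 (0.136), PbfRNAi replicate 3 (0.0626), o2 replicate 2 (0.0503) or double mutant replicate 1 (0.139). The third was GRMZM2G132862, already described, with limma log2 fold changes of −1.08 ± 0.37, adjusted p = 0.033 for o2 against PbfRNAi and −1.32 ± 0.37, adjusted p = 0.0129 for the double mutant against PbfRNAi. Its first call was lost without any 1 of the o2 libraries (0.0554 to 0.0949), PbfRNAi replicate 2 (0.0631) or PbfRNAi replicate 3 (0.1), and its second without double mutant replicate 2 (0.0512). GRMZM5G887647 was lower in o2 than in PbfRNAi (−0.82 ± 0.25, adjusted p = 0.018, limma; 0.0528 without PbfRNAi replicate 1 and 0.0509 without PbfRNAi replicate 2).

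By limma, 5 members were called in the double mutant against PbfRNAi alone, all higher, and 9.04% of tested genes were called there alone in either direction. The members were AGA2, GRMZM2G170552, GRMZM2G449709, GRMZM2G039792 and GRMZM5G824534. GRMZM2G039792 stood at FPKM 5.67, 6.13 and 5.58 in o2, 3.63, 6.01 and 5.14 in PbfRNAi and 7.34, 7.24 and 7.36 in PbfRNAi;o2, against 1.30, 1.45 and 1.13 in WT. The double mutant libraries differed by little and were above all others (limma, 0.51 ± 0.14, adjusted p = 0.0133; 0.431 when scaled). GRMZM5G824534 stood at FPKM 5.83, 12.4 and 13.9 in o2, 11.3, 7.97 and 9.06 in PbfRNAi and 13.9, 19.4 and 21.2 in PbfRNAi;o2, against 2.92, 3.07 and 3.27 in WT. Its o2 and PbfRNAi libraries overlapped (the double mutant against PbfRNAi, limma, 0.87 ± 0.26, adjusted p = 0.0168; 0.15 when scaled, 0.0666 without PbfRNAi replicate 2, 0.0514 without double mutant replicate 2 and 0.0607 without double mutant replicate 3). With the replicate block it was also higher in the double mutant than in o2 (limma adjusted p = 0.0349, against 0.0507). GRMZM2G449709 passed weakly (limma, 1.04 ± 0.35, adjusted p = 0.0324; 0.162 when scaled, and 0.0645 to 0.113 without PbfRNAi replicate 1 or 2 or double mutant replicate 2 or 3), and its difference from o2 passed only with the block (adjusted p = 0.00541).

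Of the members called in no contrast, 5 have not yet been given. AC205471.4_FG007 was the most abundant of these, at FPKM 87.9, 88.4 and 102 in o2, 26.4, 69.5 and 87 in PbfRNAi and 121, 69.8 and 77.2 in PbfRNAi;o2, against 7.95, 22.1 and 21.8 in WT. PbfRNAi replicate 1 was just above the higher WT libraries and far below the other mutant libraries. GRMZM2G483598 stood at FPKM 16.3, 8.17 and 7.78 in o2, 23.3, 10.1 and 13.5 in PbfRNAi and 7.43, 13.3 and 18.7 in PbfRNAi;o2, against 3.85, 2.74 and 2.71 in WT. Its mutant genotypes overlapped throughout. GRMZM2G305280 stood at FPKM 8.90, 14.8 and 14.1 in o2, 8.35, 9.05 and 14.7 in PbfRNAi and 27.4, 9.21 and 11.5 in PbfRNAi;o2, against 3.74, 2.89 and 3.47 in WT. Here double mutant replicate 1 was high and the other 8 mutant libraries lay close together.

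GRMZM2G365250 and GRMZM2G006130 each had 1 mutant library well below the other 8. GRMZM2G365250 stood at FPKM 7.47, 14.3 and 14.2 in o2, 16.1, 15.02 and 15.9 in PbfRNAi and 15.6, 13.2 and 12.3 in PbfRNAi;o2, against 4.96, 3.63 and 4.37 in WT. All mutant libraries but o2 replicate 1 lay between 12.3 and 16.1. When scaled, it was lower in o2 than in PbfRNAi (limma adjusted p = 0.00652) and lower in the double mutant than in PbfRNAi (0.0282). GRMZM2G006130 stood at FPKM 10.8, 9.11 and 8.55 in o2, 6.67, 7.02 and 7.05 in PbfRNAi and 2.99, 10.7 and 10.8 in PbfRNAi;o2, against 2.26, 2.26 and 2.67 in WT. Double mutant replicate 1 was close to WT and its other replicates were among the highest mutant libraries. A limma p that misses the threshold does not show that the genotypes have the same level.

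The median spread of the members within a genotype was larger than that of all tested genes. These sets were not matched for level, and the same libraries chose the members. The median coefficient of variation of the 33 genes was 29.8% in o2, 32.8% in PbfRNAi and 26% in PbfRNAi;o2, against 23.7% in WT. Over all tested genes it was 13.3%, 16%, 14.9% and 14.9% in the same order. Replicate 1 was often at one end. It was the lowest library in o2 for 23 of the 33 and in PbfRNAi for 20, where 59.7% and 38.4% of all tested genes had it lowest. In the double mutant it was lowest for 16 (48.5%) and highest for 15 (45.5%), where 30.4% of tested genes had it lowest and 57.6% highest. In WT it was lowest for 13 (39.4%) and highest for 13 (39.4%), where 33.2% of tested genes had it lowest and 52.7% highest. The labels do not say what sets replicate 1 apart.

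Just inside the limit of 2.5, besides GRMZM2G132862, were rps13, with a smallest ratio of 2.53, and GRMZM2G006130, with 2.56, both in PbfRNAi. Just outside it were GRMZM2G003384, with 2.494, GRMZM2G094510, with 2.493, and GRMZM2G009735, with 2.45, all in o2. GRMZM2G003384 stood at FPKM 20.9, 20.3 and 21.7 in o2, 61.4, 43.9 and 52.999 in PbfRNAi and 108, 99.3 and 110.1 in PbfRNAi;o2, against 9.31, 7.44 and 7.61 in WT, an order and separation like those of GRMZM2G042412. A further 8 genes met the ratios and the level but had a mutant library at or below a WT library, and in each of them a replicate 1 library of o2 or PbfRNAi was such a library. Another 4 met all but the upper limit of 300. They were fl3, psei10, grp1 and GRMZM2G404688, named after their values were seen.

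The members were scattered in the gene order of the reference assembly, Zm-B73-REFERENCE-NAM-5.0. The values were made on an earlier build, so only the order was used. No 2 of the 24 members with an entry lay within 5 genes of each other. One pair, rps13 and GRMZM2G157443, lay 7 genes apart, a distance noticed after the values were seen. The nearest tested genes on either side of the members, 39 in all, had median ratios to WT of 1.42 in o2, 1.2 in PbfRNAi and 1.41 in PbfRNAi;o2. Of these neighbours 6 (15.4%) had all mutant libraries above all WT libraries, against 18.6% of tested genes, and none reached a ratio of 2.5 in every mutant genotype. Members were not counted as neighbours. Only 0.252% of tested genes, members among them, met that ratio with all mutant libraries above WT, so the last count was nearly fixed in advance.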

How the data were processed

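The authors deposited 1 table of FPKM values for 39448 gene models in 12 columns, whose names match the sample titles. Per the labels' protocols, libraries made with a ribosomal RNA removal kit were sequenced as paired 125 nt reads. The tools named, per the submitters' processing notes, are Cufflinks, TopHat, Bowtie2 and FastQC, on build B73 RefGen_v3. Tool versions were not given in the sources used here.

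Members were chosen as stated, and members and lists were chosen with earlier results of these data known. Contrasts between mutant genotypes were fitted in R 4.3.3 by limma 3.58.1, on log2(FPKM + 1), for the 17058 genes that reached FPKM 1 in 3 or more libraries. All 12 libraries entered 1 model with trend and robust moderation. The fit was tried on simulated data with independent noise in each library, so that trial does not cover deviations shared by replicates. Tests were two-sided with Benjamini-Hochberg adjustment over all tested genes. Same-numbered replicates of different genotypes deviated together (r = 0.18 to 0.501 over 18 pairs, across genes). Pairs with other numbers gave r = −0.425 to 0.313 over 36 pairs, so the ranges overlapped, but every same-numbered pair was positive. Within a genotype, replicates 2 and 3 correlated at r = 0.989 to 0.995, and replicate 1 with either of them at 0.955 to 0.97. The main fit has no replicate term and treats the libraries of a genotype as independent. The fit with a replicate block is given where it changed a call. Named genes are members with a symbol, the 10 highest in level, smallest ratio or change in each contrast, and the 3 nearest the limit on each side; here all other members are given as well. The planned promoter motifs and product classes were not used here. Names came from a RefSeq table of Zm-B73-REFERENCE-NAM-5.0, where 18906 identifiers matched. Tables and figures used python 3.11.15, pandas 2.3.3 and matplotlib 3.10.9.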

Additional observations from a re-analysis of the deposited data

Results flagged for a closer look

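In 3 genes all double mutant libraries lay below all libraries of a single genotype. The rule itself required a higher level than WT with each lesion alone. Of the 33 members, 1 had all double mutant libraries below all o2 libraries, where 13.9% of all tested genes did. In 2 members they lay below all PbfRNAi libraries, where 7.9% of all tested genes had them there. This order was thus no more common among the members than among all tested genes. All PbfRNAi;o2 libraries of GRMZM2G366681 lay below all o2 libraries, at 0.643 of the o2 mean, but the difference did not pass (limma adjusted p = 0.266). All PbfRNAi;o2 libraries of GRMZM2G090609 lay below all PbfRNAi libraries, at 0.591 of the PbfRNAi mean. That call (limma adjusted p = 0.0347) was lost under 5 of 21 settings. The PbfRNAi;o2 libraries of GRMZM2G132862 lay likewise, at 0.216. The last ratio rests in part on PbfRNAi replicate 3, since it was 0.379 without that library. The difference between the effects was not tested, because it contains the WT values that chose the genes.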

How the results depend on the processing

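The rule kept 121 genes with a fold of at least 2, 16 with a fold of at least 3, 12 after median-of-ratios scaling and 65 without the 4 replicate 1 libraries, against 33. Leaving out 1 library gave 31 to 64 genes. Other offsets, level limits and the overlap condition gave 22 to 49. Between mutant genotypes, members higher in PbfRNAi;o2 than in o2 numbered 13 with the replicate block (19.3% of tested genes), 19 without the replicate 1 libraries (23.2%) and 7 to 13 leaving out 1 library, against 8 (14.4%). Members lower numbered 1 (11.1%), 4 (26.3%) and 0 to 1, against 0 (7.84%). Members higher in PbfRNAi;o2 than in PbfRNAi numbered 6 when scaled (13.7%) and 9 to 16 leaving out 1 library, against 14 (38.9%). Members lower there numbered 1 with no filter on low values (5.01%), 6 without the replicate 1 libraries (10.9%) and 1 to 3 leaving out 1 library, against 3 (6%). In o2 against PbfRNAi, members higher numbered 3 when scaled (14.7%), 14 without the replicate 1 libraries (55.3%) and 4 to 8 leaving out 1 library, against 5 (34.8%). Members lower there numbered 13 without the replicate 1 libraries (14%) and 6 to 9 leaving out 1 library, against 8 (9.97%). The share of all tested genes called moved with these settings too. Leaving out 1 library, 9.95% to 16.4% were higher and 4.54% to 9.66% lower in PbfRNAi;o2 than in o2. Against PbfRNAi, 29.5% to 41.1% were higher and 4.12% to 6.65% lower in PbfRNAi;o2. In o2 against PbfRNAi these shares were 23.9% to 38.6% and 7.52% to 11.1%. Of 38 member calls 21 held under all 21 settings, none reversed, 10 were lost when scaled and 1 (AGA2) with the replicate block. Fitting only the 6 libraries of a contrast, with no WT library, lost 6 calls. In the double mutant against PbfRNAi these were GRMZM2G042412 (limma adjusted p = 0.051), GRMZM2G366681 (0.059), GRMZM2G050460 (0.1) and AGA2 (0.12). In o2 against PbfRNAi they were GRMZM2G382379 (0.053) and GRMZM2G132862 (0.082). The block gained 12 calls, and changed no other. The cause of these changes was not tested. Depth is unknown, so what it limits cannot be given.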
